A study of Mus musculus with 8 samples.

Results

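SOX9 CUT&Tag coverage was examined at Cd44 and at 9 genes of hyaluronan metabolism in the mouse spinal cord, uninjured and 1 day after injury (1 d.p.i.). The 10 genes are the synthases Has1, Has2 and Has3, the degrading enzymes Hyal1, Hyal2, Hyal3 and Cemip, the modifier Tnfaip6, and the receptors Cd44 and Hmmr, out of 21938 coding genes in the GENCODE M21 annotation. Cd44 was chosen by a measured value: it hosts IREN5, a cloned injury-responsive element whose SOX9 coverage was already known to be higher at 1 d.p.i. The other 9 genes were selected on the known roles of their products, with earlier results of these data in view. The coverage of IREN5, and of Cd44 as its host, is therefore given as a description. Cd44 is part of the fits over all coding genes, but its p is not used, and counts of genes that passed a test are over the 9 others.

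In CUT&Tag, antibodies bring a transposase to a chromatin protein, and the pieces of DNA that it releases nearby are sequenced. All mice were wild-type C57BL/6. The study's methods give an age of 8 to 12 weeks, and its reporting summary 2 to 6 months. The injured group was sampled 1 day after a mid-thoracic contusion of 55 kilodynes, as 5 mm of cord centred on the lesion, and the uninjured group at the matching level. The sample labels say that nuclei were sorted on 7AAD, a DNA stain. The methods of the paper refer to a sort that also used antibodies to NEUN or SOX10, and whether a cell type was gated for these libraries is not stated. Of each sample of 150000 nuclei, 20% went through the same steps without SOX9 antibody. Each of the 2 conditions had 1 male (M) and 1 female (F) sample from different animals, and each sample gave 1 SOX9 library and 1 control from the same nuclei. There were thus 8 libraries, 4 of them with the SOX9 antibody.

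Every value below is the mean coverage of a stretch of the genome divided by the library's own genome-wide mean, so 1 is the level of an average base and genes of different length can be compared. Promoter means the annotated start of the gene with 1 kb on each side, and gene window means the gene body with 20 kb on each side. Groups are called not overlapping where both libraries of one condition lie above both of the other. The libraries were not alike. The uninjured F library held 7216730 fragments, against 1891276 in uninjured M, 2529356 in M at 1 d.p.i. and 2385009 in F at 1 d.p.i. Its median promoter also had the highest coverage, 4.64, against 2.77, 3.58 and 3.24 in the same order. The controls held between 10906 and 52950 fragments. Of the control fragments that stood alone, 82.3% to 93.5% began and ended on the same bases as some SOX9 fragment, so the controls are not independent of them. The part of these shared fragments in the results was not tested. With the SOX9 libraries thinned to the same number of fragments, the limma test over all coding genes gave the same counts as without thinning, 0 promoters in either direction and 14 gene windows higher and 0 lower.

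The windows of the 10 genes join into 8 regions of 689413 bp in all. They held 795 (M) and 3652 (F) SOX9 fragments in the uninjured group and 1232 (M) and 1095 (F) in the injured group, or 420, 506, 487 and 459 per 1000000 fragments. The order did not separate the conditions. The 4 controls had 7 (M) and 26 (F) fragments there in the uninjured group and 22 (M) and 6 (F) in the injured group, or 308, 555, 415 and 550 per 1000000 fragments. These densities bracket those of the SOX9 libraries. Of the lone control fragments there, between 75% and 100% coincided with a SOX9 fragment, so the 2 sets of densities are not independent. Coverage of these windows above the genome-wide level is therefore not shown to be particular to the SOX9 antibody. A single control fragment, taken as 200 bp, in a promoter amounts to between 24.1 and 104 times the library mean, so the background at single promoters could not be measured at this depth. At the 10 promoters the controls were at 0 but for 5 values, 84.9 (M) and 7.68 (F) times the mean in the uninjured group at Hmmr, and in the injured group 48.7 (M) at Cd44, 27.9 (M) at Has1 and 135 (F) at Hyal2.

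Hyaluronan is a long, unbranched sugar polymer that the synthases extrude through the plasma membrane and that fills much of the extracellular space of the brain and spinal cord. Hyaluronidases and Cemip cut it into shorter chains, and Cd44 and Hmmr bind it at the cell. Reactive astrocytes and infiltrating leukocytes are known to carry Cd44, and hyaluronan chains of different size are known to act differently on glial cells after injury.

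At the start sites the coverage of the list ranged from Has2, with a mean of 1.1 over the 4 SOX9 libraries, and Cd44, with 1.69, to Hyal3, with 11.7, and Hyal2, with 11.8. With limma fitted over 21365 coding promoters with signal, 0 of the 9 genes other than Cd44 were higher and 0 lower at an adjusted p under 0.05, where the background was 0% in both directions. At an unadjusted p under 0.05 the count was also 0 of 9, against 242 promoters higher and 276 lower over all. The adjusted p was 1.00 for each of the 9, and the log2 differences ran from -1.22 (Has1) to 0.44 (Has2), with a median of 0.12 against -0.06 over all coding promoters. None of the 9 promoters had groups that did not overlap, in either direction, where 8.56% of all promoters were higher and 14.3% lower in this sense. As these are bulk nuclei, a change in the mix of nuclei and a change in SOX9 signal per nucleus cannot be told apart.

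**Figure D1:**
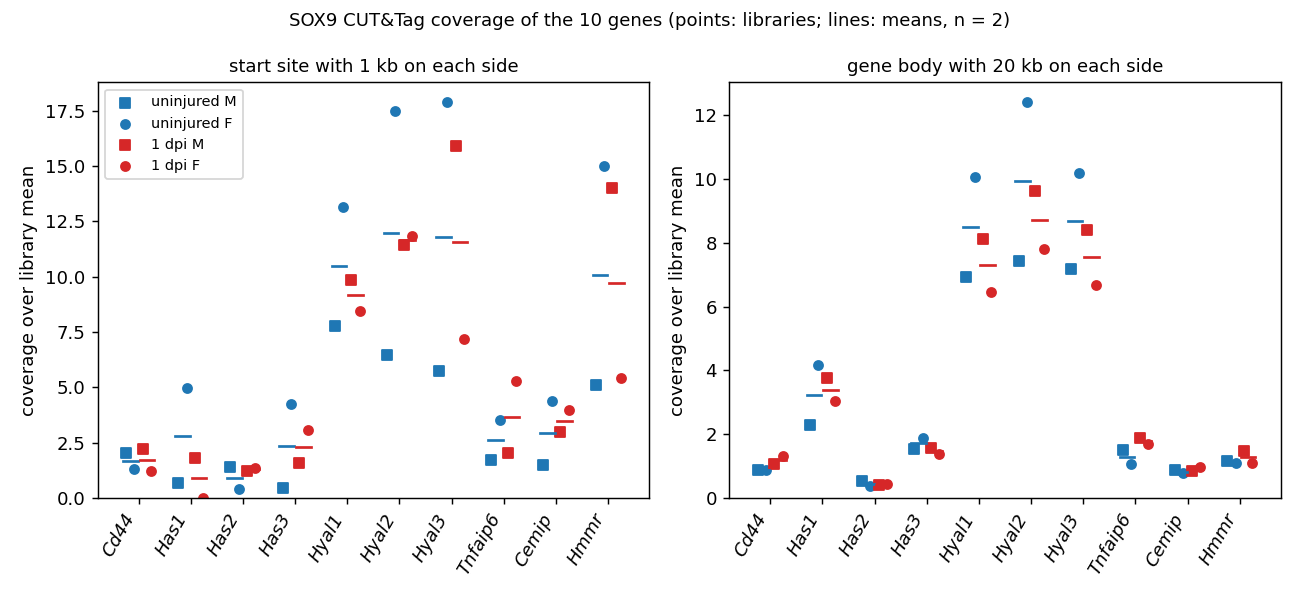
SOX9 CUT&Tag coverage over the library mean (vertical axes) of the 10 genes (horizontal axes), at the promoter (left) and in the gene window (right). Squares are M and circles F libraries, blue uninjured and red 1 d.p.i., and lines are means (n = 2); the Hyal1, Hyal2 and Hyal3 windows lie between 6.47 and 12.4, above all other windows.

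Over the gene windows, which rest on more fragments, the Tnfaip6 window was higher in both injured libraries than in both uninjured ones but did not pass the test. In this fit, 14 of 21938 windows (0.0638%) were higher at an adjusted p under 0.05 and 0% were lower, and limma called 0 of the 9 windows other than that of Cd44 in either direction. At an unadjusted p under 0.05, 1 of 9 was higher and 0 lower, against 444 and 202 over all. Both 1 d.p.i. libraries lay above both uninjured libraries in 1 of these 9 windows, that of Tnfaip6, where 12.3% of all windows did, so the count was near the background. They lay below in 0 of 9, where 11.8% did. The Cd44 window was also higher in both injured libraries, which its choice favoured. The median log2 difference was -0.03 over the 9 and -0.02 over all windows.

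Among the synthases, Has2 (chr15:56665627-56694539), the main producer of long hyaluronan chains in many tissues, had the least SOX9 coverage of the list. Its gene window had 0.521 (M) and 0.365 (F) times the mean in the uninjured group and 0.405 (M) and 0.434 (F) in the injured group, at percentile 16.4 of all coding genes. The uninjured libraries enclosed the injured ones. At its promoter the values were 1.41 (M) and 0.418 (F) in the uninjured group and 1.23 (M) and 1.35 (F) in the injured group, on 2 to 6 fragments a library. Over the gene body alone, both 1 d.p.i. libraries, at 0.386 (M) and 0.475 (F), were below both uninjured ones, at 0.603 (M) and 0.495 (F), but counted as fragments per 1000000 the groups overlapped, with 8.99 (M), 4.71 (F), 6.33 (M) and 7.13 (F). The nearest other coding start to that of Has2 was 783086 bp away, and in no 1-kb tile of its window did the 4 libraries average 3 times the library mean.

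Has1 (chr17:17843323-17855205), also a synthase, had the promoter of the list at which the log2 difference differed most between M and F with the pseudocount of 0.5. The size of this gap depends on that pseudocount, so the rank is not firm. The Has1 promoter had 0.653 (M) and 4.97 (F) times the mean in the uninjured group and 1.82 (M) and 0 (F) in the injured group. The high library was uninjured F, the deepest, with 25 fragments, while F at 1 d.p.i. had 0 fragments, which by counting error alone allows up to 3. The group means were 2.81 ± 3.05 and 0.912 ± 1.29 (SD, n = 2). The log2 difference of -1.22 became -0.10 without the uninjured F library, -0.11 without F at 1 d.p.i., -2.33 without M at 1 d.p.i. and -2.34 without uninjured M. It was -2.16 with a pseudocount of 0.1 and -0.64 with a pseudocount of 2. With 2 kb on each side of the start it was -1.44, with an unadjusted p of 0.0189, the only alternative with a promoter of the list under 0.05, and the adjusted p was 0.662 to 1.00 over all alternatives. The window of Has1 reached percentile 81.0, with 2.29 (M), 4.17 (F), 3.76 (M) and 3.04 (F), but its coverage lay mostly in the 20 kb beyond the end of the gene. There the values were 4.47 (M) and 7.46 (F) uninjured and 6.95 (M) and 6.51 (F) injured, and the highest tile, chr17:17827001-17828000, held the start of Spaca6 and averaged 27.9 times the mean.

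Has3 (chr8:106870242-106884566), which makes shorter chains, had promoter coverage of 0.436 (M) and 4.26 (F) in the uninjured group and 1.57 (M) and 3.07 (F) in the injured group. Both F libraries were above both M libraries. The window had 1.53 (M) and 1.89 (F), then 1.55 (M) and 1.38 (F), and its highest tile, chr8:106893001-106894000, held the starts of Chtf8 and Utp4 rather than that of Has3. The 20 kb upstream were higher at 1 d.p.i. in both sexes, with 1.15 and 1.39 against 1.56 and 1.69, and the 20 kb downstream were lower, with 1.92 and 1.80 against 1.36 and 1.3. Counted as fragments per 1000000 the upstream groups overlapped, with 10.6 and 9.56 against 12.3 and 10.5, and the downstream ones did not. These flanks were singled out after their values were seen and were not tested.

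Hyal1, Hyal2 and Hyal3 encode hyaluronidases, of which Hyal2 cuts long chains at the cell surface and Hyal1 short ones in lysosomes. The genes lie side by side on chromosome 9 between 107567945 and 107587359, and their windows share most of their bases, so they are not independent values. Their windows had the highest coverage of the list in all 4 SOX9 libraries. The Hyal2 window had 7.41 (M) and 12.4 (F) times the mean in the uninjured group and 9.61 (M) and 7.81 (F) in the injured group, at percentile 99.2 of coding genes, and the windows of Hyal1 and Hyal3 were at percentiles 98.2 and 98.4. Uninjured M was lowest and uninjured F highest at Hyal2, and the injured libraries lay between them. The controls had few fragments in the same windows, at Hyal2 1 (M) and 9 (F) in the uninjured group and 5 (M) and 1 (F) in the injured group, and at Hyal1 2, 5, 6 and 2. Relative to their own means these gave 2.23 (M) and 13.1 (F) at Hyal2 in the uninjured group and 7.15 (M) and 6.03 (F) in the injured group, and at Hyal1 with 4.62 (M), 9.58 (F), 6.54 (M) and 9.72 (F). In the 20 kb downstream of Hyal1 both injured libraries, at 6.64 (M) and 5.62 (F), were below both uninjured ones, at 8.03 (M) and 9.32 (F), and the largely shared 20 kb downstream of Hyal3 had 7.41 (M) and 8.19 (F), then 5.93 (M) and 5.15 (F). These flanks were singled out after their values were seen and had no test.

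At the Hyal2 promoter uninjured M was again lowest and uninjured F highest, with 6.46 (M) and 17.5 (F) uninjured and 11.4 (M) and 11.9 (F) injured, or means of 12 ± 7.79 and 11.6 ± 0.290 (SD, n = 2). The limma log2 difference was 0.12 with a standard error of 0.64. At the Hyal1 promoter the coverage was 7.78 (M), 13.2 (F), 9.86 (M) and 8.46 (F), and at the Hyal3 promoter 5.73 (M), 17.9 (F), 15.9 (M) and 7.20 (F). All 3 promoters were higher at 1 d.p.i. in M and lower in F. RefSeq places the Hyal2 start 1218 bp downstream of the GENCODE one, and there the coverage was 6.18 (M), 21.0 (F), 20.7 (M) and 14.4 (F), which also overlapped.

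Coverage in this cluster was not confined to the hyaluronidases. Of the 46 tiles of the Hyal2 window, 43 reached 3 times the library mean on average over the 4 SOX9 libraries, against 6.32% of tiles in the genome. Its highest tile, chr9:107554001-107555000, averaged 42.1 and lay upstream of Hyal2, with no annotated coding start in it. The window also holds Zmynd10, Rassf1, Tusc2, Naa80 and Ifrd2. The highest tile of both other windows, chr9:107587001-107588000, held the start of Ifrd2 and averaged 29.9. Among the tiles of the Hyal2 window with 3 times the mean, 12 had both 1 d.p.i. libraries below both uninjured ones and 3 above, where 16.4% and 15.5% of such tiles in the genome were.

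The list was also described by base composition, which the choice of genes did not use. Over all coding promoters, the median SOX9 coverage was 0.608 in the third with the lowest ratio of observed to expected CpG, 4.52 in the third with intermediate ratios and 8.44 in the third with the highest. The Hyal1, Hyal2 and Hyal3 promoters had CpG ratios of 0.285, 0.310 and 0.297, at percentiles 34.0, 36.0 and 35, with mean coverage of 9.82, 11.8 and 11.7. Cd44 had a similar ratio, 0.316, at percentile 36.6, but a mean coverage of 1.69. Tnfaip6 and Cemip had ratios of 0.454 and 0.569, with mean coverage of 3.14 and 3.21. Has1 had the lowest ratio of the list, 0.137, and a mean coverage of 1.86. Has2 and Has3 had ratios of 0.600 and 0.591, above the median of 0.474 over all coding promoters, with coverage of 1.1 and 2.33, below the median of 3.70. Hmmr had the highest ratio, 0.644, and a coverage of 9.89.

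Cemip (chr7:83932857-84086502) encodes a secreted or membrane-associated protein needed for hyaluronan breakdown in several cell types. Its promoter had 1.49 (M) and 4.39 (F) times the mean in the uninjured group and 2.97 (M) and 3.99 (F) in the injured group. As at Has3, both F libraries were above both M libraries. The gene is the longest of the list, with 153646 bp, and its window was near the library mean, with 0.882 (M) and 0.769 (F), then 0.838 (M) and 0.980 (F). Over the gene body the 1 d.p.i. libraries, at 0.781 (M) and 0.986 (F), lay just above the uninjured ones, at 0.748 (M) and 0.773 (F). Its highest tile, chr7:84086001-84087000, was the one with its own start site. Over gene bodies, 3 of the 10 genes were higher in both injured libraries (Tnfaip6, Cemip and Cd44, the last chosen on this contrast) and 1 lower (Has2). The counts were 3 and 0 in the 20 kb upstream and 1 and 3 in the 20 kb downstream. The shares over all coding genes were not taken for these parts, so nothing is read from the counts.

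Tnfaip6 (chr2:52038009-52056686) encodes TSG-6, a secreted protein that binds hyaluronan and transfers protein chains of inter-alpha-inhibitor onto it, and that is known to be induced by inflammatory signals. Its gene window had 1.49 (M) and 1.08 (F) times the mean in the uninjured group and 1.87 (M) and 1.70 (F) in the injured group, on 63 to 180 fragments a library. Both injured libraries were above both uninjured ones, and the difference had the same direction in M and F. The means were 1.28 ± 0.290 and 1.78 ± 0.119 (SD, n = 2), and limma gave a log2 difference of 0.36 with a standard error of 0.17, an unadjusted p of 0.0299 and an adjusted p of 1.00. It was the 1 window of the 9 under an unadjusted p of 0.05, and the difference did not pass the test over all windows. No window of the 9 was under it with a trimmed mean of log ratios, with all 8 libraries in the fit, with sex as a replicate block or without either 1 d.p.i. library, and the Tnfaip6 log2 difference was 0.20 without uninjured F and 0.53 without uninjured M. Without uninjured F the 1 window of the 9 under it was that of Has1 instead, with a log2 difference of 0.47, an unadjusted p of 0.0112 and adjusted p of 0.267 to 1.00 over its alternatives.

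Within the window of Tnfaip6 the difference between the groups lay over the gene body and the 20 kb beyond its end. The window also holds Rif1, whose start lies 34823 bp from that of Tnfaip6. The gene body had 1.92 (M) and 1.43 (F) in the uninjured group and 2.63 (M) and 2.62 (F) in the injured group, and the downstream 20 kb had 1.60 (M) and 1.11 (F), then 2.3 (M) and 1.70 (F). In the upstream 20 kb the groups overlapped, with 0.967 (M), 0.719 (F), 0.720 (M) and 0.832 (F). The highest tile, chr2:52042001-52043000, was centred 4491 bp downstream of the start and had 3.91 (M) and 5.58 (F), then 11.8 (M) and 7.22 (F). It was singled out after its values were seen. The promoter itself had 1.70 (M), 3.54 (F), 2.04 (M) and 5.29 (F), with a log2 difference of 0.36 and a standard error of 0.79, and on this scale it was the only promoter of the list to move in the same direction in M and F. Counted as fragments per 1000000 it did not, with 2.1 (M), 2.49 (F), 1.58 (M) and 3.35 (F), on 4 fragments in each M library.

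Hmmr (chr11:40701395-40733422), also named RHAMM, binds hyaluronan at the cell surface and the mitotic spindle inside dividing cells. Its promoter had 5.09 (M) and 15.0 (F) times the mean in the uninjured group and 14.0 (M) and 5.43 (F) in the injured group. The condition means, 10.1 ± 7.02 and 9.72 ± 6.06 (SD, n = 2), were nearly equal, and M and F ran in opposite directions. The start of Nudcd2 lies 245 bp away on the other strand, so this promoter belongs to both genes. The gene body had 0.728 (M), 0.415 (F), 0.756 (M) and 0.553 (F), below the library mean, and the 20 kb downstream 1.79 (M), 1.29 (F), 2.03 (M) and 1.65 (F), above it.

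Cd44 (chr2:102811141-102901665, minus strand) encodes the main cell-surface receptor for hyaluronan. At its promoter the coverage was 2.04 (M) and 1.31 (F) times the mean in the uninjured group and 2.21 (M) and 1.22 (F) in the injured group, on 2 to 6 fragments a library. Both M libraries were above both F libraries, and the conditions overlapped, with means of 1.67 ± 0.513 and 1.72 ± 0.698 (SD, n = 2) and a ratio of 1.03. This is at percentile 34.4 of coding promoters. Over the 4 SOX9 libraries, the coding promoters closest to that of Cd44 in log2 coverage were those of Fxyd4, Entpd8 and Clic6, at Euclidean distances of 0.216, 0.245 and 0.265. Over 4 libraries and at so low a level such likeness is a description only.

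The whole Cd44 window had 0.878 (M) and 0.889 (F) in the uninjured group and 1.06 (M) and 1.32 (F) in the injured group, a ratio of 1.35 ± 0.215 (SD from both groups, n = 2 each). The groups did not overlap. Since Cd44 was chosen by IREN5, the window was also measured without it, and had 0.874 (M), 0.875 (F), 0.969 (M) and 1.26 (F). This is a ratio of 1.27 ± 0.232 (SD from both groups, n = 2 each). With IREN5 included, the difference lay in the gene body, with 0.804 (M), 0.929 (F), 1.09 (M) and 1.43 (F), and in the 20 kb upstream, with 0.808 (M), 0.794 (F), 1.18 (M) and 1.35 (F). The gene body was not measured without IREN5. Counted as fragments per 1000000 the groups overlapped upstream, where M was lower after injury, with 8.99 (M), 6.24 (F), 7.12 (M) and 9.22 (F). In the gene body, IREN5 included, they did not, with 27.0 (M), 32.7 (F), 37.2 (M) and 49.1 (F). In the 20 kb downstream the groups overlapped, with 1.28 (M), 0.802 (F), 0.793 (M) and 0.844 (F).

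Scanned in 1-kb tiles, Cd44 and its flanks gave 131 tiles. Of the 125 tiles with signal in any SOX9 library, 22 (17.6%) had both 1 d.p.i. libraries above both uninjured ones, and 13 (10.4%) below. Over all such tiles in the genome the shares were 11.1% and 13.2%, and since Cd44 was chosen on this contrast nothing is read from the difference. Of the higher tiles 13 were intronic, 2 touched an exon, 5 were upstream and 2 downstream. Coverage was sparse, with 74 (M) and 15 (F) tiles at 0 in the uninjured group and 61 (M) and 41 (F) in the injured group. In the test of tiles over the genome, 59 of 172298 (0.0342%) were higher and 9 (0.00522%) lower at an adjusted p under 0.05, and 3748 and 3342 at an unadjusted p under 0.05. Of Cd44, 3 tiles reached the mean of 3 needed to enter that fit, and since the choice of Cd44 used this contrast no call is read from them.

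**Figure D2:**
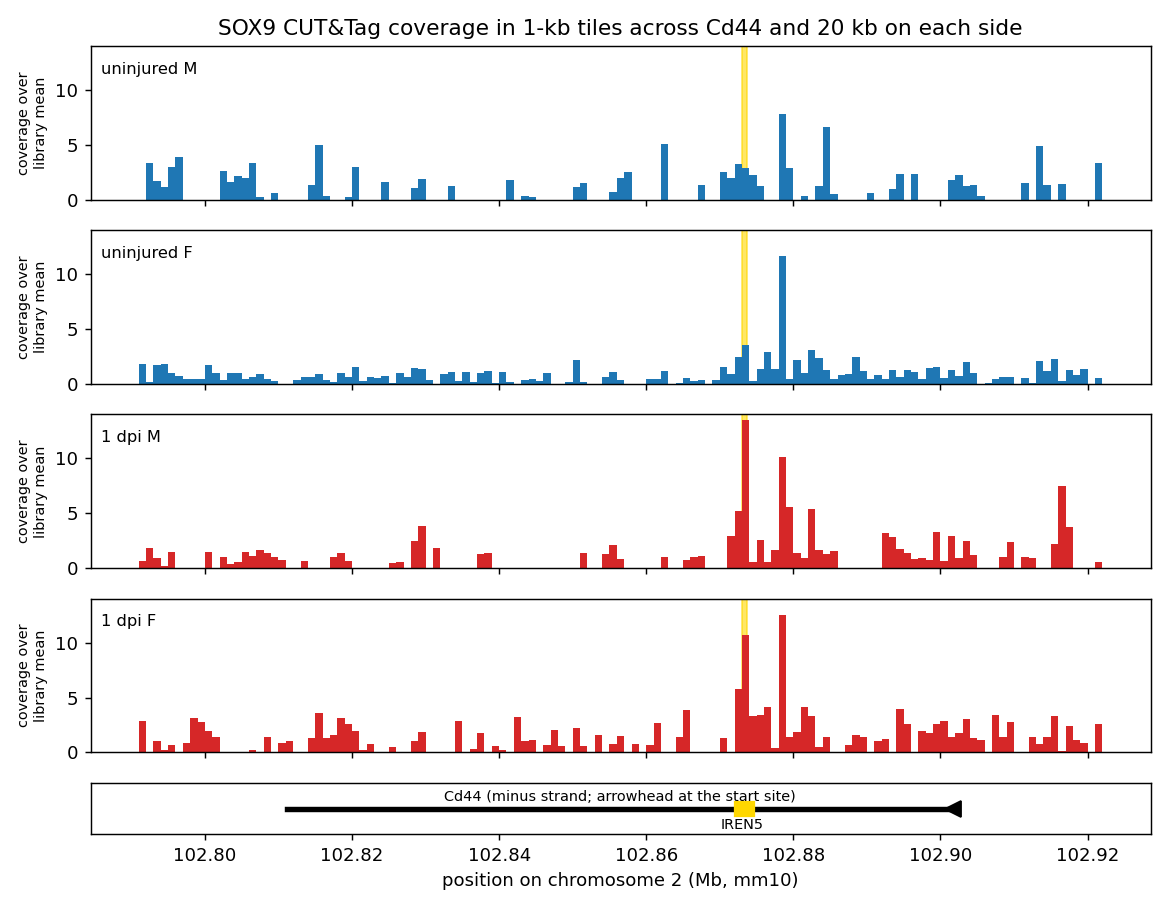
SOX9 CUT&Tag coverage over the library mean (vertical axes) in 1-kb tiles along chromosome 2 (horizontal axis, Mb) across Cd44 and 20 kb on each side, for each SOX9 library. The band marks IREN5, whose tile stands at 2.85 (M) and 3.57 (F) in the uninjured group and 13.5 (M) and 10.7 (F) in the injured group, while the tile 5 kb closer to the start of Cd44 is high in all 4 libraries.

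The tile with most of IREN5, chr2:102873001-102874000, had 2.85 (M) and 3.57 (F) times the mean in the uninjured group and 13.5 (M) and 10.7 (F) in the injured group. Among the 131 tiles it ranked at 14 (M) and 2 (F) in the uninjured group and at 1 (M) and 2 (F) in the injured group. Its neighbour on the side away from the start of Cd44, chr2:102872001-102873000, had 3.24 (M), 2.49 (F), 5.23 (M) and 5.80 (F), on 3 to 9 fragments a library. Another tile in the same intron, chr2:102878001-102879000, had 7.78 (M), 11.7 (F), 10.1 (M) and 12.5 (F). It was high in all 4 libraries and its groups overlapped, so the most covered tile of Cd44 over both conditions was not that of IREN5.

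The tile with the start site, chr2:102901001-102902000, had 1.80 (M), 1.31 (F), 2.89 (M) and 1.40 (F), and its groups overlapped. The other tiles with the highest uninjured means rested on few fragments. They were chr2:102884001-102885000, with 6.59 (M), 1.27 (F), 1.31 (M) and 1.43 (F), and chr2:102913001-102914000, upstream of the gene, with 4.93 (M), 2.09 (F), 0 (M) and 0.753 (F). In both, uninjured M was the high library, with 4 fragments. The groups overlapped in the former, and in the latter both injured libraries were below both uninjured ones. After the IREN5 tile, the largest positive differences were at chr2:102916001-102917000, upstream, with 1.45 (M), 0.258 (F), 7.47 (M) and 0.108 (F), and at chr2:102882001-102883000, in the intron, with 0 (M), 3.12 (F), 5.40 (M) and 3.36 (F). Upstream the groups overlapped and M at 1 d.p.i. alone was high, and in the intron they did not overlap.

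IREN5 (chr2:102872975-102873741 on mm10, 767 bp) lies in the first intron of all 9 annotated transcripts of Cd44, an intron of 35821 bp, and its nearer end is 27924 bp from the gene start. On the scale of the library mean its coverage was 1.49 (M) and 3.17 (F) in the uninjured group and 15.9 (M) and 12.9 (F) in the injured group, a ratio of 6.19 with an SD of 3.28. The values rest on 3 (M) and 7 (F) fragments in the uninjured group and 12 (M) and 10 (F) in the injured group, for which exact 95% Poisson intervals are 0.619 to 8.77, 2.81 to 14.4, 6.20 to 21.0 and 4.80 to 18.4. Per 1000000 fragments of the library these are 1.59 (M), 0.970 (F), 4.74 (M) and 4.19 (F), a ratio of 3.50. The ratio was 9.68 without the uninjured F library, and 2.64 when 2 kb centred on the element were taken.

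The controls had 0 (M) and 1 (F) fragments at IREN5 in the uninjured group and 0 (M) and 0 (F) in the injured group. The 1 control fragment began and ended on the same bases as one in the uninjured M library. A count of 3 fragments, the floor used for a count of 0, corresponds to between 56.7 and 275 per 1000000 in the controls, above the SOX9 values themselves. The background at IREN5 was therefore not measurable in the controls.

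**Figure D3:**
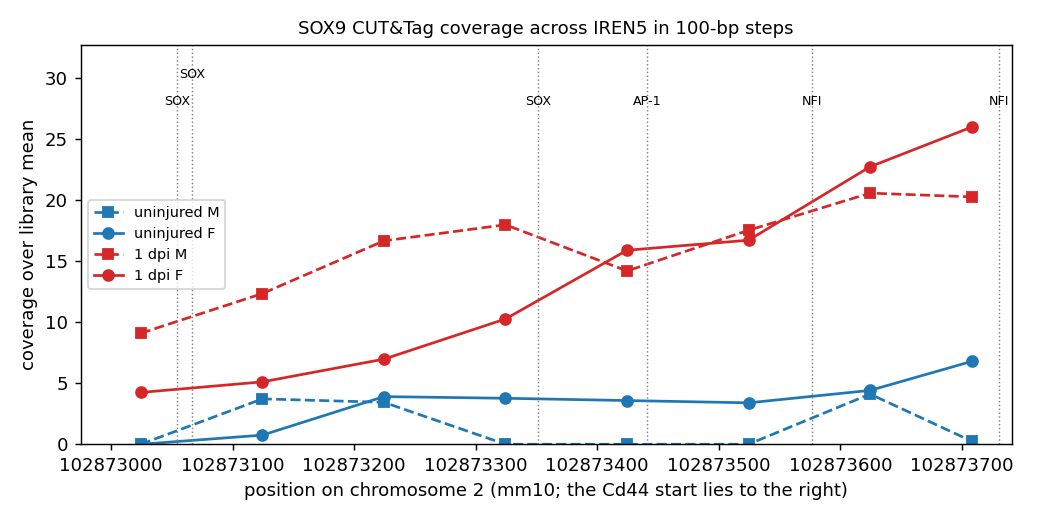
SOX9 CUT&Tag coverage over the library mean (vertical axis) across IREN5 in steps of 100 bp (horizontal axis, position on chromosome 2), by library, with dotted lines at motif matches. At 1 d.p.i. the coverage is higher towards the start of Cd44, on the right, reaching 20.3 (M) and 26.0 (F) in the last step.

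Within IREN5 the coverage at 1 d.p.i. was higher towards the end nearer the start of Cd44. In the first 100 bp it was 9.09 (M) and 4.24 (F) and in the last step 20.3 (M) and 26.0 (F). The highest mean of the injured libraries, 25.3 times the library mean, fell on chr2:102873701-102873718, 23 bp from that end. In uninjured cords the first 100 bp had 0 in both libraries and the last step 0.252 (M) and 6.78 (F).

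The element was searched on both strands for letters that AP-1, SOX and NFI factors are known to bind, to show which of them lie under this coverage. The AP-1 motif TGAGTCA, which reads TGACTCA on the other strand, was found 1 time, at chr2:102873438-102873444. Of all windows of 767 bp on chromosome 2, 11.8% hold it. Of the SOX motifs, AACAAT was found 1 time, at chr2:102873349-102873354, and 43.8% of such windows hold it. The motif ACAATG, which can overlap with it, was found 1 time elsewhere, and 40.1% of windows hold it. The motif ACAAAG was also found 1 time, and 53.9% of windows hold it. The NFI motif TGCCAA was found 2 times, and 6.96% of windows hold it at least as often. The AACAAT match lay 84 bp and the nearer TGCCAA match 130 bp from the AP-1 match, which was itself 257 bp from the highest injured coverage. Only these exact letters were searched, so AP-1 sites with other letters were not counted. The paper's reactive astrocyte model predicted tandem AP-1 motifs in IREN5. A match is a description and not a site of binding.

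The 300 bases from the AP-1 match towards the start of Cd44 are shown because they hold the highest coverage at 1 d.p.i. They are chr2:102873438-102873737, read on the minus strand, which is the sense strand of Cd44, with AP-1 and NFI matches in capitals.
IREN5: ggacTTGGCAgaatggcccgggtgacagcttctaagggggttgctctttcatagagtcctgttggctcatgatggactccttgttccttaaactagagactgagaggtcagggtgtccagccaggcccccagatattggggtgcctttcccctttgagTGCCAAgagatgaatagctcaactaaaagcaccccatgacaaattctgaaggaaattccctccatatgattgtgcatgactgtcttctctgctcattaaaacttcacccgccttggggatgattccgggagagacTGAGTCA

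The study also built versions of IREN5 with changed motifs, of which the first 399 bases were compared here with the genome. The version without AP-1 differed at 19 of them, all in 1 run at chr2:102873425-102873443, and the version without astrocyte factor motifs at 29. Of the motifs searched, the former had lost its AP-1 match and kept 2 NFI matches and the AACAAT match. The latter had kept AP-1, lost AACAAT and kept 1 NFI match. These versions were not assayed by CUT&Tag. The paper tested them in injured cords as reporters carried by viruses. It reports a drastic loss of reporter activity without AP-1. Without the SOX9 and NFI sites it reports a milder loss of astrocyte labelling and a drastic loss of specificity. A further version, with the motifs kept and other bases shuffled, is not shown. The stretch around the AP-1 and AACAAT matches, chr2:102873343-102873453 on the minus strand, is shown to place the changed bases under the coverage, with matches in capitals in the genome and changed bases in capitals in the built versions.
Genome: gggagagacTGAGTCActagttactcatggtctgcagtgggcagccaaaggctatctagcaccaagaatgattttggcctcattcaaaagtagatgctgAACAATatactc
Without AP-1: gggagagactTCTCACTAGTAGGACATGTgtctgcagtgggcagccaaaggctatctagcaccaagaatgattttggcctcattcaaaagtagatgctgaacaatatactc
Without astrocyte factor motifs: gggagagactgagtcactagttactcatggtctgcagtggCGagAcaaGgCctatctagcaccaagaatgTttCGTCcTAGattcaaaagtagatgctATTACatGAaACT
Over the 19 bases changed in the version without AP-1, coverage was 0 (M) and 3.12 (F) times the mean in the uninjured group and 12.3 (M) and 16.9 (F) in the injured group, from 0, 3, 3 and 4 fragments.

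Promoter sequences from RefSeq, 250 bases before to 50 after the start on GRCm38, were in the table for 8 of the 10 genes, all but Has2 and Has3. The AP-1 motif was in 1 of the 8, that of Tnfaip6, and in 4.58% of 16522 coding promoters. At least 1 SOX motif was in those of Hyal1 and Tnfaip6, and in 29.5% of all, and the NFI motif was in the same 2 promoters and in 13.4% of all. Tnfaip6 was thus the only one of the 8 promoters searched with all 3 kinds, a combination singled out after it was seen. The SOX match of Tnfaip6, ACAATG on the minus strand, lay 139 bp after the GENCODE start and is outside the stretch shown. The 146 bases of Tnfaip6 up to the GENCODE start, chr2:52037863-52038008 on the plus strand, are shown with the NFI and AP-1 matches in capitals, 50 and 38 bp before that start.
Tnfaip6: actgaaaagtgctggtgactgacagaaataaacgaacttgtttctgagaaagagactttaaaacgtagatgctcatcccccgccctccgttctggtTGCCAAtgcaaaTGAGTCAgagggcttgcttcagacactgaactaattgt

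Beyond the list, 46 other genes of hyaluronan and Cd44 biology were all measured, and 0 were called in either direction by limma at promoters or in gene windows. At an unadjusted p under 0.05, 242 of 21365 promoters were higher and 276 lower, and 444 of 21938 windows higher and 202 lower. Among the 46 other genes, 2 were higher and 0 lower in each of the 2 fits. At promoters these were Itih5, with 0 (M), 0.228 (F), 1.12 (M) and 1.2 (F), and Ezr, which links Cd44 to actin and had 0 (M), 1.53 (F), 2.53 (M) and 4.94 (F), and in windows Itih5 and Layn, a hyaluronan receptor with 0.508 (M), 0.311 (F), 0.644 (M) and 0.848 (F). They were chosen after their values were seen. At promoters 7 of 46 had both 1 d.p.i. libraries above both uninjured ones and 8 below, where 8.56% and 14.3% of all promoters did. In gene windows the counts were 11 and 6, where 12.3% and 11.8% of all windows did. The median log2 difference was 0.07 at promoters and 0.02 in windows, against -0.06 and -0.02 over all coding genes.

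By role, the counts of windows with groups that did not overlap, higher and lower, were 1 and 2 of 8 degrading enzymes, 3 and 0 of 6 receptors, 3 and 3 of 17 matrix partners, 0 and 1 of 5 genes of precursor synthesis, and 4 and 0 of 10 Cd44 partners. The shares over all windows were 12.3% higher and 11.8% lower, and lists of this size give no test. The promoter with the most coverage was that of Hapln2, a link protein that joins hyaluronan to proteoglycans around axons, with 10.2 (M) and 19.6 (F) in the uninjured group and 26.6 (M) and 19.1 (F) in the injured group. The least was at Spam1, a hyaluronidase of sperm, with 0, 0.233, 0 and 0. The smallest adjusted p of the 46 was that of the window of Itih5, an inter-alpha-inhibitor chain, with 0.857 (M), 0.582 (F), 1.19 (M) and 1.3 (F), a log2 difference of 0.52 and an adjusted p of 0.395, which did not pass.

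SOX9 coverage at the promoters of cell type markers, which is not their expression, was summed by cell type over 23 markers in all. Promoter coverage summed over 6 astrocyte markers was 11.6 (M) and 14.4 (F) in the uninjured group and 20.1 (M) and 11.1 (F) in the injured group, with Sox9 itself the most covered and Aqp4 and Gja1 at 0 in at least 1 library. Over 4 markers of the oligodendrocyte lineage the sums were 48.9 (M), 56.4 (F), 48.7 (M) and 28.1 (F), led by Sox10, with Pdgfra at 0 in uninjured M. Both injured libraries were below both uninjured ones, in M only just. Over 7 markers of microglia and myeloid cells they were 8.23 (M), 5.27 (F), 8.67 (M) and 10.1 (F), led by Cx3cr1, with both injured libraries above both uninjured ones, and Ly6c2 and S100a8 at 0 in at least 1 library. For 3 neuronal markers the sums were 17.5, 29.3, 21.8 and 12.9, for 2 endothelial ones 2.42, 4.93, 1.89 and 5.57 with Pecam1 at 0 in uninjured M, and for Foxj1 of ependymal cells 9.08, 21.3, 16.5 and 11, in the same order. At single promoters, 2 astrocyte markers were higher and 2 lower in both injured libraries than in both uninjured ones, 1 and 1 of the oligodendrocyte lineage, 0 and 1 of neurons and 3 and 2 of microglia and myeloid cells, where 8.56% and 14.3% of all promoters were.

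Summed over gene windows, the measure in which Cd44 and Tnfaip6 had groups that did not overlap, the astrocyte markers had 8.78 (M) and 8.50 (F) in the uninjured group and 11.3 (M) and 10.4 (F) in the injured group. The myeloid markers had 7.87 (M), 7.95 (F), 8.92 (M) and 9.45 (F), and the endothelial ones 2.49 (M), 2.54 (F), 2.57 (M) and 2.77 (F). In these 3 lists both injured libraries were above both uninjured ones, as in the Cd44 and Tnfaip6 windows. The oligodendrocyte lineage had 19.3 (M), 25.6 (F), 21.5 (M) and 18.4 (F), the neuronal markers 6.04 (M), 8.0 (F), 6.10 (M) and 5.35 (F), and Foxj1 5.17 (M), 7.31 (F), 5.68 (M) and 6.22 (F), and their groups overlapped. Windows higher in both injured libraries were 3 of 6 astrocyte markers, 3 of 7 myeloid, 1 of 4 of the oligodendrocyte lineage and 1 of 2 endothelial, and 2 of 3 neuronal windows were lower, where 12.3% and 11.8% of all windows were. Gfap, an astrocyte marker, had window coverage of 2.42 (M), 2.81 (F), 3.61 (M) and 3.53 (F), and Pdgfra, of oligodendrocyte precursors, 0.794 (M), 0.917 (F), 1.15 (M) and 1.16 (F). Both were named after their values were seen. The part of these cell types in the Cd44 and Tnfaip6 values was not tested.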

How the data were processed

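The 8 libraries were 4 of SOX9 CUT&Tag and 4 controls made without SOX9 antibody. The authors mapped read pairs with Bowtie2 2.5.4 to mm10 and removed duplicates with Picard 3.4.0, and they deposited coverage, the number of fragments over each stretch, with no scaling for depth. The step that wrote this coverage is not given in the sources used here. Each rise in it was taken as a fragment start. Promoters (1 kb on each side of the start), gene windows (20 kb on each side) and 1-kb tiles with a mean of 3 or more entered fits with limma 3.58.1 (R 4.3.3) of log2(coverage over the library mean + 0.5), with a mean-variance trend, in the 4 SOX9 libraries. Fold changes on this scale understate those of low windows. Calls had a Benjamini-Hochberg adjusted p under 0.05 over all windows tested. Promoters at 0 in all 4 libraries, which have no spread, were dropped, as decided after seeing the data, and calls were 0 in both directions with or without them. Python 3.11.15 with numpy 2.4.6, pandas 2.3.3 and scipy 1.17.1 was used, and the fit and the coverage sums were tested on simulated data. The members and lists were chosen with earlier results of these data known. All 10 members were named. Of other genes, the rule named those of the pathway list past the threshold or, with none, its highest and lowest promoter, and the 3 promoters closest to that of Cd44. Itih5, Ezr, Layn, Gfap, Pdgfra and the single tiles outside Cd44 were chosen after their values were seen. Alternatives covered pseudocount, scaling, filter, window, depth, libraries fitted, sex as a block and each SOX9 library left out.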

Additional observations from a re-analysis of the deposited data

Results flagged for a closer look

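At 9 of the 10 promoters, all but that of Tnfaip6, the M and F libraries moved in opposite directions between uninjured cords and 1 d.p.i. on the scale of the library mean. The difference was not tested, since each sex had 1 library in each condition, and over all coding promoters 58.2% moved in opposite directions. The log2 difference was higher in M than in F at 8 of the 9, by 4.46 at Has1 (a value that depends on the pseudocount of 0.5, since F at 1 d.p.i. had 0 fragments there), 2.76 at Hmmr, 2.65 at Hyal3, 1.56 at Has3, 1.32 at Hyal2, 0.93 at Hyal1, 0.92 at Cemip and 0.17 at Cd44. At Has2 it was the other way, at -1.15.

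In 8 of the 10 gene windows, all but those of Cd44 and Tnfaip6, M and F likewise moved in opposite directions, as did 66.3% of all coding windows, and this too was not tested. The log2 difference in M minus that in F was 1.01 at Has1, 0.99 at Hyal2, 0.82 at Hyal1, 0.79 at Hyal3, 0.36 at Has3 and 0.25 at Hmmr, and it was -0.29 at Has2 and -0.27 at Cemip. The windows of Hyal1, Hyal2 and Hyal3 share most of their bases. What sex and what the single library contribute cannot be told apart.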

How the results depend on the processing

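None of the 9 members other than Cd44, whose p is not used, was called at its promoter or in its gene window under any alternative run. The promoter counts of 0 higher and 0 lower stayed at 0, except for 1 higher promoter, not of the list, among windows with a mean of at least 1. The 14 higher gene windows became 1 with a trimmed mean of log ratios, 22 with that filter, 0 with all 8 libraries in the fit, 0 over the gene body alone, and between 2 and 134 without 1 SOX9 library (129 without uninjured M, 134 without uninjured F, 2 without M and 3 without F at 1 d.p.i.), where lower windows numbered 0 to 115 (115 and 78 without uninjured M and F, otherwise 0). The lone library of a condition was then assumed to vary like the others. The 59 higher and 9 lower tiles became 21 and 3 with a trimmed mean of log ratios, 0 and 0 with all 8 libraries, and 0 to 632 and 0 to 56 without 1 library (46 and 0 without uninjured M, 632 and 45 without uninjured F, 28 and 56 without M and 0 and 8 without F at 1 d.p.i.). The share of higher promoters whose groups did not overlap rose from 8.56% to 14.6% when scaled by the median promoter, an alternative chosen after seeing the data. The IREN5 ratio was 2.64 over 2 kb, and 4.54 to 9.68 without 1 library. Where no cause is given by the setting itself, the cause was not tested. The Tnfaip6 window had an adjusted p of 0.0645 to 1.00 over its alternatives and the windows of Cd44 and Tnfaip6 had groups that did not overlap also under a trimmed mean and with the SOX9 libraries thinned to the same number of fragments. Thinned, the Cemip window was also higher and the Has3 window lower in this sense, and the Hyal1 promoter was lower when scaled by the median promoter. The sign of the log2 difference changed in at least 1 of the promoter alternatives at 9 of the 10 members, all but Has1. M and F mark sex and different animals, and their deviations correlated between conditions at -0.10 over promoters, -0.38 over gene windows and -0.04 over tiles. With sex as a replicate block, 3 gene windows were higher, and 22 tiles were higher and 3 lower. With the crossed pairing as a block, chosen after seeing the data, 39 windows were higher and 1 lower, and 87 tiles were higher and 18 lower.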
